A study of Mus musculus with 6 samples.

Results

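Vegfa, Vegfb, Kdr and Flt1 encode the vascular endothelial growth factors A and B and the receptors VEGFR2 and VEGFR1. They were taken by gene name from a table of 13072 genes, in which all 4 are listed, and their 8 listed transcripts from a table of 26721 transcripts. The data are RNA sequencing of whole mouse retinas at postnatal day 7, on a C57BL/6 background in both groups. There were 3 libraries from wild-type mice (WT) and 3 from CTGF-/- mice (CTGF_KO), whose gene for connective tissue growth factor was removed by inducible Cre/lox deletion. The sources used here do not name the Cre driver or the time of induction. No label ties a library to its own animal, so p-values here speak only of the spread between libraries, part of which may be technical.

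VEGF-A is the secreted signal that draws new vessels across the growing retina. Astrocytes, Mueller glia and retinal neurons make it. VEGFR2 (Kdr) is the main signalling receptor of endothelial cells and is also made by retinal progenitors and neurons. VEGFR1 (Flt1) binds VEGF-A tightly but signals weakly, and its soluble form keeps VEGF-A away from VEGFR2. VEGF-B binds VEGFR1 and not VEGFR2. Connective tissue growth factor itself can bind VEGF-A.

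Levels are given in FPKM, which scale fragments by the length of the feature and by the library total, as the authors deposited them. Read counts are not in these tables, so the depth of each library is unknown. Gene FPKM totals ran from 208436 to 216436 in the WT libraries and from 217674 to 230474 in the CTGF_KO libraries. CTGF_KO replicate 2 stood apart among transcripts, with 1875 listed at 0, while the remaining libraries had 716 to 861. The targeted gene, Ctgf, had 0.932, 0.777 and 1.51 FPKM in the WT libraries, and 0.587, 1 and 0.526 FPKM in CTGF_KO. Its groups overlapped, and since the deleted part of the gene is not named, these values do not check the labels. All 12 rod genes looked for were listed, and the most abundant, Rom1, was at 362 ± 47.1 FPKM in WT and 440 ± 22.4 FPKM in CTGF_KO (SD, n = 3). Lens genes, which mark a neighbouring tissue, varied widely, and their mean log2(FPKM + 1), relative to the WT mean, was 2.98, -1.51 and -1.47 in the WT libraries, against 2.85, 2.03 and 5.88 in CTGF_KO.

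None of the VEGF ligands and receptors passed the adjusted threshold between the groups. Kdr and Flt1 were lower in all 3 CTGF_KO libraries than in all 3 WT libraries, Vegfb was higher in all 3, and Vegfa overlapped. In limma's moderated test on log2(FPKM + 1), with Benjamini-Hochberg adjustment over 12915 genes and a threshold of 0.05, 0 of the 4 genes passed, where 6 of all genes, or 0.0465%, did. At an unadjusted p under 0.05 there were 2 of 4, Kdr and Flt1, both lower, against 9.32% of all genes in either direction and 5.49% lower (3.83% higher). These unadjusted calls were not stable: Kdr kept a p under 0.05 in 9 of 14 alternative settings and Flt1 in 6 of 13, and Vegfb reached it in 2 of 14. Groups that did not overlap were found in 10.9% of all genes as lower in CTGF_KO and in 7.53% as higher. The authors' filtered lists of differing genes and transcripts hold 0 of the 4 genes, and in the authors' deposited table of all genes the p-values of Kdr and Flt1 were 0.0440 and 0.0408, with a q-value of 0.624 for each. The fit without moderation gave the same p-values for Kdr and Flt1, so the deposited ones are not separate evidence.

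**Figure D1:**
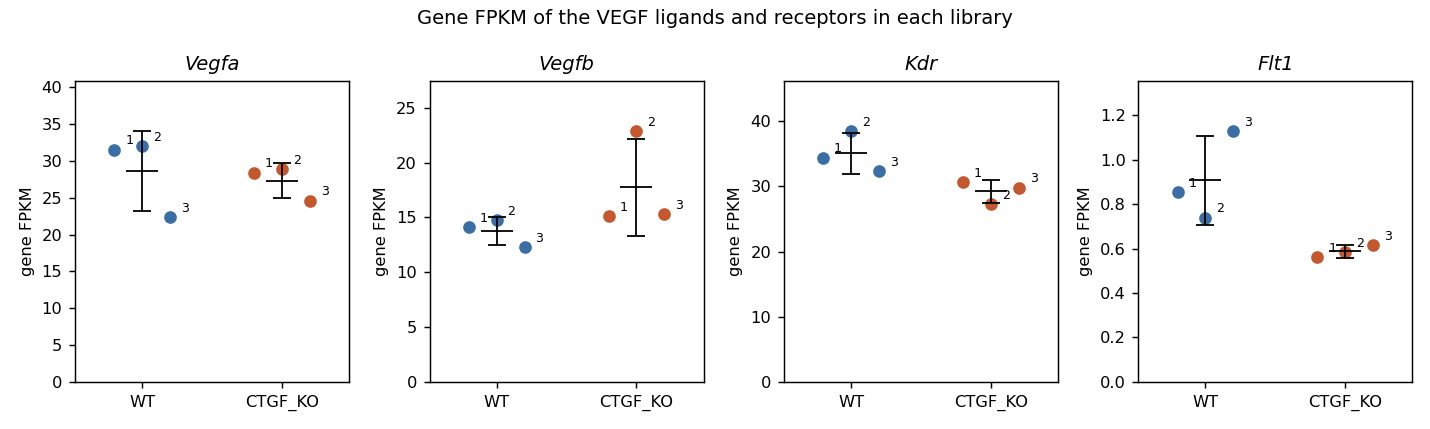
Gene FPKM (vertical axis, from 0) of Vegfa, Vegfb, Kdr and Flt1 in 3 WT libraries (blue) and 3 CTGF_KO libraries (orange), with replicate numbers, and the mean and SD of each group in black. Kdr and Flt1 lie lower in every CTGF_KO library than in any WT library, Vegfb lies higher with CTGF_KO replicate 2 far above the rest, and Vegfa overlaps.

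Among the ligands, Vegfa (ENSMUSG00000023951.17, GRCm38 chromosome 17, 46016993 to 46032369, minus strand) was at 31.5, 32.0 and 22.4 FPKM in WT and 28.4, 28.9 and 24.6 FPKM in CTGF_KO. WT replicate 3 was the lowest of the 6 libraries and the other WT libraries were the highest, so the CTGF_KO libraries lay inside the WT range. The means were 28.6 ± 5.43 and 27.3 ± 2.35 FPKM (SD, n = 3). The difference of mean log2(FPKM + 1), counted as CTGF_KO minus WT, was -0.05 (SE 0.15, limma adjusted p = 0.901), with a 95% interval from -0.40 to 0.29. Its sign depended on single libraries, from -0.21 without WT replicate 3 to 0.04 without WT replicate 2. Vegfa stood at the 88.1th percentile of the tested genes by mean FPKM.

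Vegfb (ENSMUSG00000024962.13, chromosome 19, 6982473 to 6987651, minus strand) was at 14.1, 14.8 and 12.3 FPKM in WT and 15.1, 22.9 and 15.3 FPKM in CTGF_KO. The groups did not overlap, although CTGF_KO replicates 1 and 3 lay just above WT replicate 2. The means were 13.7 ± 1.28 and 17.8 ± 4.44 FPKM (SD, n = 3), a ratio of 1.29. The log2 difference was 0.33 (SE 0.16, limma adjusted p = 0.553), with a 95% interval from -0.06 to 0.71. Without CTGF_KO replicate 2, the library that stood apart among transcripts, it was 0.14. The log2 ratio of Vegfb to Vegfa within a library was -1.16, -1.12 and -0.86 in the WT libraries, against -0.91, -0.34 and -0.69 in CTGF_KO. These ratios overlapped between the groups, and an exact two-sided permutation test gave p = 0.2, where 3 against 3 cannot go below 0.1. The mean difference of 0.40 was 0.25 without CTGF_KO replicate 2.

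Among the receptors, Kdr (ENSMUSG00000062960.10, chromosome 5, 75932827 to 75978458, minus strand) was the most abundant of the 4 genes, at 34.4, 38.5 and 32.3 FPKM in WT and 30.6, 27.3 and 29.8 FPKM in CTGF_KO. All 3 CTGF_KO libraries lay below all 3 WT libraries, and CTGF_KO replicate 1 and WT replicate 3 were the nearest. The means were 35.1 ± 3.13 and 29.3 ± 1.76 FPKM (SD, n = 3), a ratio of 0.834. The log2 difference was -0.25 (SE 0.09, limma unadjusted p = 0.0280, adjusted p = 0.533), with a 95% interval from -0.47 to -0.04. Leaving out any 1 library gave -0.31 to -0.18, with an unadjusted limma p of 0.0617 without WT replicate 1, 0.103 without WT replicate 2, 0.0592 without CTGF_KO replicate 2 and 0.0547 without CTGF_KO replicate 3. The order of abundance in WT was Kdr, Vegfa, Vegfb and Flt1 by gene FPKM. In CTGF_KO the ranges of Kdr, 27.3 to 30.6 FPKM, and Vegfa, 24.6 to 28.9 FPKM, overlapped.

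Flt1 (ENSMUSG00000029648.13, chromosome 5, 147561604 to 147726011, minus strand) was weakly expressed, at 0.853, 0.740 and 1.13 FPKM in WT and 0.561, 0.584 and 0.617 FPKM in CTGF_KO. The CTGF_KO libraries lay close together and below every WT library, while WT replicate 3 was the highest. The means were 0.907 ± 0.200 and 0.587 ± 0.0280 FPKM (SD, n = 3), a ratio of 0.647. With a pseudocount of 1, which shrinks the log2 differences of weak genes, the difference was -0.26 (SE 0.11, limma unadjusted p = 0.0419, adjusted p = 0.533), with a 95% interval from -0.51 to -0.01. With a pseudocount of 0.1 it was -0.53 (limma adjusted p = 0.535). The unadjusted limma p was 0.0761 with median centring, and without any 1 library other than WT replicate 2 it was 0.0733 to 0.115. Flt1 stood at the 4.19th percentile of tested genes. A gene this weak is near the floor of the deposited table, in which the higher of the 2 group means is never under 0.5 FPKM.

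The receptors did not follow each other within WT. WT replicate 2 was the highest library for Kdr and the lowest WT library for Flt1, and WT replicate 3 was the reverse. The log2 ratio of Flt1 to Kdr was -5.33, -5.70 and -4.84 in the WT libraries, against -5.77, -5.54 and -5.60 in CTGF_KO. The groups overlapped (mean difference -0.35, two-sided exact permutation p = 0.3, n = 3 per group). Leaving out WT replicate 3 gave -0.12, and leaving out WT replicate 2 gave -0.55 (exact permutation p = 0.1).

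The splice forms of Vegfa, Vegfb and Flt1 differ in how the protein is held in the matrix or the membrane, and the stretches that tell them apart are shown here. Coding exons were taken from GENCODE M21 on GRCm38, in which each listed transcript has the same start and end as in the deposited table. M21 has 13 transcripts of Vegfa, of which 3 are listed, 3 of Vegfb, of which 2 are listed, 3 of Kdr, of which 1 is listed, and 6 of Flt1, of which 2 are listed. No other M21 gene overlaps any of the 4 genes, on either strand. In every library the FPKM of the listed transcripts, weighted by length over the joined exons of the gene, came to 98.6% to 99.7% of the gene FPKM for Vegfb and 98.8% to 99.9% for Flt1. It came to 96.8% to 98.4% for Kdr and 84.4% to 90.4% for Vegfa.

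Vegfa-201 has 146 codons and matches the form known as VEGF120. Vegfa-202 has 190 codons from the same ATG and matches VEGF164, and Vegfa-207 has 214 and matches VEGF188. Both longer models are annotated with a CTG start that lies 534 bases upstream in the same frame, the start of the long form known as L-VEGF. The forms differ by the exons below, which encode stretches rich in lysine and arginine that bind heparan sulfate. VEGF120 lacks both and diffuses freely, VEGF164 has the longer exon, and VEGF188 has both and stays on the matrix. Capitals mark whole in-frame codons for lysine or arginine, 9 in the longer exon (chr17:46020991-46021122, minus strand, GRCm38, 132 bases) and 12 in the shorter exon (chr17:46022277-46022348, minus strand, 72 bases).
Exon of Vegfa-202 and Vegfa-207: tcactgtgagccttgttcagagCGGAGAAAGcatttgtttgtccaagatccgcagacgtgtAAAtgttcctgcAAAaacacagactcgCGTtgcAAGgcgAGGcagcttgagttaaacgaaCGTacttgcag
Exon of Vegfa-207 alone among the listed forms: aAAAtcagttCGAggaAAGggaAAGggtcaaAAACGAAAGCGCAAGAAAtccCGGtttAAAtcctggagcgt

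Vegfb-201 has 207 codons and matches VEGF-B186, a soluble form. Vegfb-202 has 188 codons and matches VEGF-B167, which binds heparan sulfate and stays near the cell. Vegfb-202 enters the last long coding exon 101 bases further on, and since 101 is not a multiple of 3 the remaining bases are read in another frame. The coding part of that exon in Vegfb-201 (chr19:6985386-6985596, minus strand, GRCm38) is shown with the skipped bases in capitals.
Exon of Vegfb-201: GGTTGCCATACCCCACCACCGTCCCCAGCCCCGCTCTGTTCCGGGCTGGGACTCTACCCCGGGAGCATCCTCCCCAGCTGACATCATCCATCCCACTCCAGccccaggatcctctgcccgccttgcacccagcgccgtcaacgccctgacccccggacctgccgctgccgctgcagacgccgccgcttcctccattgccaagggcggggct

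Flt1-202, with 30 exons and 1333 codons, encodes the receptor with its membrane span and kinase. Flt1-203, with 13 exons and 688 codons, matches the soluble decoy receptor. It reads through the splice site at the end of exon 13 and adds 31 codons of its own before a stop. Both are shown from the last 30 bases of the shared exon, in lower case. Capitals mark the 92 coding bases that Flt1-203 reads past the splice site (chr5:147639133-147639254 in all, minus strand, GRCm38) or the first 30 bases of exon 14 in Flt1-202 (chr5:147634494-147634523, minus strand).
Flt1-203: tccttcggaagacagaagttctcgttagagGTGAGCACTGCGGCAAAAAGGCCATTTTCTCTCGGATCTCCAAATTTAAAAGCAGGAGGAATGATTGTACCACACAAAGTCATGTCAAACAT
Flt1-202: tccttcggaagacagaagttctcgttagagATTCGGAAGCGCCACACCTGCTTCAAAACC

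**Figure D2:**
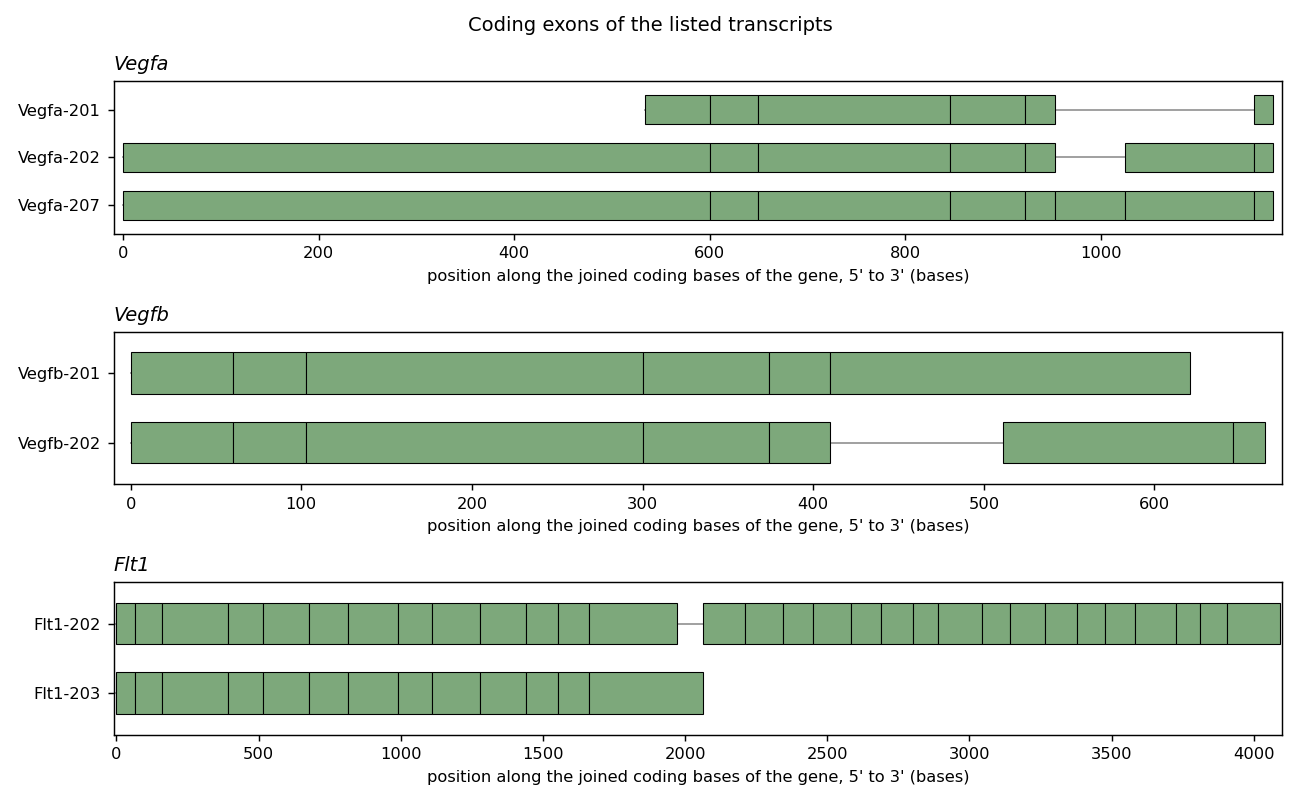
Coding exons (boxes, lengths to scale) of the listed transcripts of Vegfa, Vegfb and Flt1 along the joined coding bases of each gene, in bases from the 5′ end, with thin lines where a form skips bases. Vegfa-201 lacks the 132-base and 72-base exons and the upstream start, Vegfb-202 skips 101 bases, and Flt1-203 ends after 92 bases that Flt1-202 splices out.

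At the transcript level 0 of the 8 passed limma's test with adjustment over 25082 transcripts, where 6 of all transcripts, or 0.0239%, did. Kdr-201 alone among the 8 had an unadjusted p under 0.05, against 5.05% of all transcripts, 2.53% as lower and 2.52% as higher. Of the 8, 2 were lower in all CTGF_KO libraries than in any WT library, Kdr-201 and Flt1-202, and 1, Vegfb-202, was higher. The same held for 7.53% of all transcripts as lower and 5.9% as higher. By the sign of the log2 difference alone 6 of the 8 were lower, and so were 51.8% of all transcripts.

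The short form carried most of the Vegfa signal. Vegfa-201 was at 31.3, 29.4 and 22.3 FPKM in WT and 25.8, 37.1 and 27.3 FPKM in CTGF_KO, and the groups overlapped. Vegfa-202 was at 7.68, 9.83 and 5.01 FPKM in WT and 9.04, 2.56 and 4.29 FPKM in CTGF_KO, also overlapping. Vegfa-207 was at 0.411, 0.875 and 1.16 FPKM in WT and 0.798, 0.258 and 0.910 FPKM in CTGF_KO. CTGF_KO replicate 2 was the highest library for Vegfa-201 and the lowest for both longer forms. The log2 differences were 0.11 (SE 0.19), -0.53 (SE 0.43) and -0.14 (SE 0.26), and the limma adjusted p was 0.890, 0.819 and 0.906. The difference of Vegfa-202 was -0.93 without CTGF_KO replicate 1 (limma unadjusted p = 0.0375, adjusted p = 0.652) and -0.18 without CTGF_KO replicate 2.

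As a share of the summed FPKM of the 3 forms, Vegfa-201 was 79.5%, 73.3% and 78.3% in the WT libraries, against 72.4%, 92.9% and 84.0% in CTGF_KO. The share of Vegfa-202 was 19.5%, 24.5% and 17.6% in the WT libraries, against 25.4%, 6.42% and 13.2% in CTGF_KO. The mean difference in the share of Vegfa-201 was 6.10 percentage points and that of Vegfa-202 -5.55, each with a two-sided exact permutation p of 0.5 (n = 3 per group). Without CTGF_KO replicate 2 they were 1.18 and -1.26 percentage points, and without CTGF_KO replicate 1 they were 11.5 and -10.7. VEGF164 is known as the most abundant form in many tissues, whereas here its model took the smaller share in all 6 libraries. The annotated forms also differ in their 5′ ends. At the 3′ end Vegfa-207 stops at 46018543, short of 46016993, where Vegfa-201 and Vegfa-202 end. A share assigned by StringTie rests on all bases that differ, so how far the coding exons alone set it was not tested.

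Of the Vegfb forms, only the heparin-binding one separated the groups. Vegfb-202 was at 11.97, 11.11 and 10.68 FPKM in WT and 13.26, 25.11 and 12.96 FPKM in CTGF_KO, with no overlap. Its log2 difference was 0.50 (SE 0.26, limma adjusted p = 0.819) and 0.21 without CTGF_KO replicate 2. Vegfb-201 was at 6.80, 8.31 and 5.53 FPKM in WT and 6.70, 5.89 and 7.37 FPKM in CTGF_KO, with all CTGF_KO libraries inside the WT range and a log2 difference of -0.03 (SE 0.17, limma adjusted p = 0.972). The share of Vegfb-202 was 63.8%, 57.2% and 65.9% in the WT libraries, against 66.4%, 81.0% and 63.7% in CTGF_KO. The groups overlapped, with a mean difference of 8.10 percentage points (two-sided exact permutation p = 0.3, n = 3 per group) and 2.80 without CTGF_KO replicate 2.

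Kdr-201, the full-length receptor, was at 50.7, 57.2 and 48.3 FPKM in WT and 45.7, 40.8 and 44.8 FPKM in CTGF_KO. The groups did not overlap, as for the gene, and the log2 difference was -0.24 (SE 0.10, limma unadjusted p = 0.0437, adjusted p = 0.819). Its FPKM exceeds that of the gene because the 5924 bases of the transcript are shorter than the 9030 joined bases of all Kdr exons in M21, which include retained introns. At the transcript level Kdr-201 was at 52.1 ± 4.58 FPKM in WT and Vegfa-201 at 27.7 ± 4.77 FPKM (SD, n = 3). Kdr-201 is the only listed form of Kdr and Vegfa-201 is 1 of 3 of Vegfa, so this gap does not compare the genes.

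Membrane-bound and soluble Flt1 were measured at similar levels. Flt1-202 was at 0.989, 0.902 and 1.25 FPKM in WT and 0.698, 0.559 and 0.775 FPKM in CTGF_KO, with no overlap. Its log2 difference was -0.29 (SE 0.16, limma unadjusted p = 0.131, adjusted p = 0.819). The authors' deposited table gives it a p-value of 0.0353 and a q-value of 0.816. The fit without moderation gave the same p-value, so the deposited one is not separate evidence. Flt1-203 was at 0.738, 0.580 and 1.03 FPKM in WT and 0.438, 0.640 and 0.459 FPKM in CTGF_KO, where CTGF_KO replicate 2 lay above WT replicate 2. Its log2 difference was -0.23 (SE 0.17, limma adjusted p = 0.819), and -0.13 without WT replicate 3. The soluble form made up 42.7%, 39.1% and 45.0% of the 2 forms in WT and 38.6%, 53.4% and 37.2% in CTGF_KO. CTGF_KO replicate 2 was again the library apart. The mean difference in this share was 0.77 percentage points (two-sided exact permutation p = 1, n = 3 per group) and -4.40 without that library.

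**Figure D3:**
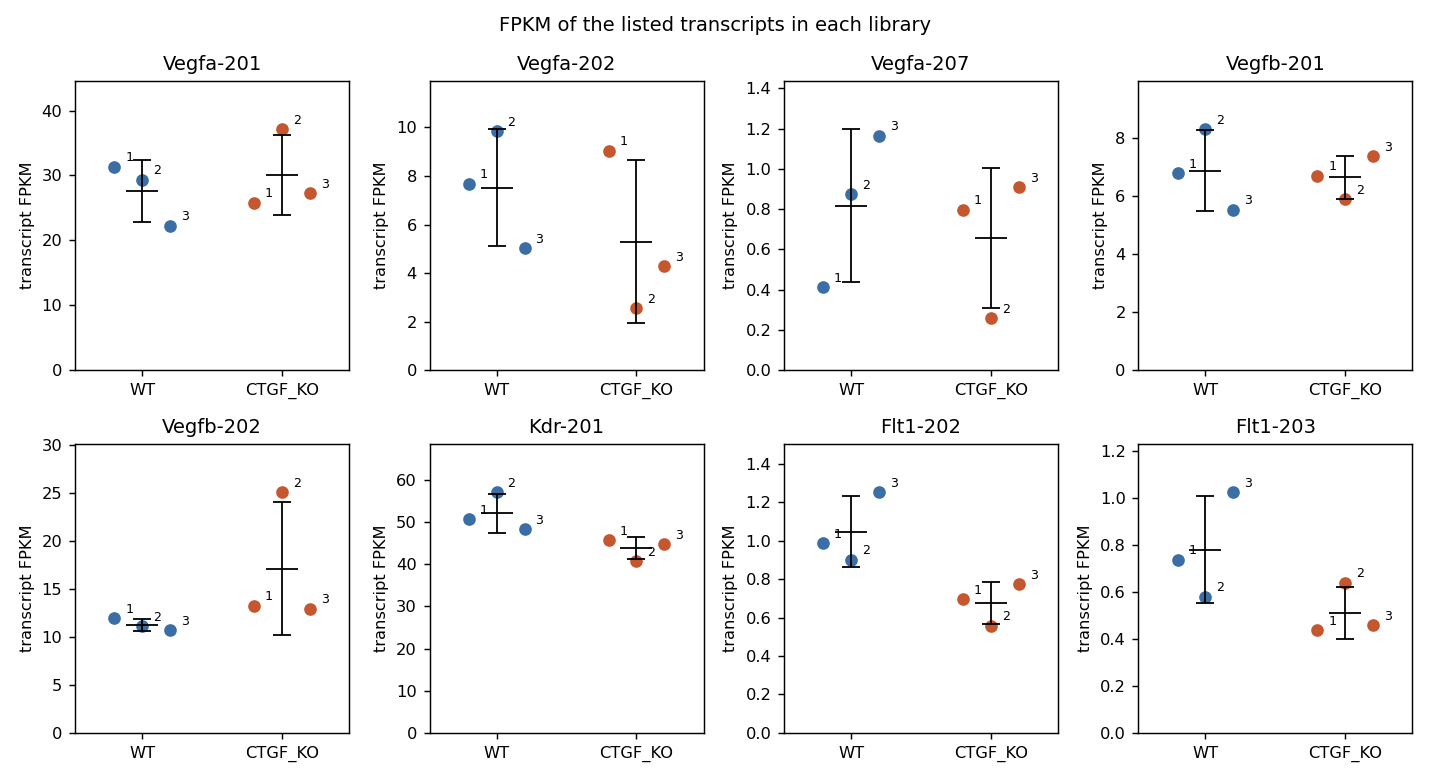
FPKM (vertical axes, from 0) of the 8 listed transcripts in 3 WT libraries (blue) and 3 CTGF_KO libraries (orange), with replicate numbers and the mean and SD of each group in black. CTGF_KO replicate 2 is highest for Vegfa-201 and Vegfb-202 and lowest for Vegfa-202, Vegfa-207, Kdr-201 and Flt1-202.

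Of the other VEGF ligands, receptors and co-receptors, 9 of 12 were listed and tested, 4 with a higher and 5 with a lower mean in CTGF_KO (median log2 difference 0.00, against -0.02 over all genes tested). None passed the adjusted threshold. Vegfd, Flt4 and Ptprb are not among the listed genes, so they have no values here. Placental growth factor (Pgf), another VEGFR1 ligand, was at 0.895, 0.835 and 0.743 FPKM in WT and 1.04, 1.33 and 0.783 FPKM in CTGF_KO. Vegfc, the ligand of the lymphatic receptor, was at 0.799 ± 0.140 and 0.893 ± 0.403 FPKM (SD, n = 3). Both ligands were as weak as Flt1, and their groups overlapped.

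Nrp1, the neuropilin that holds VEGF164 and VEGFR2 together, was at 3.51, 3.42 and 3.49 FPKM in WT and 2.75, 4.41 and 3.55 FPKM in CTGF_KO. The CTGF_KO libraries lay on both sides of WT (log2 difference 0.02, SE 0.14, limma adjusted p = 0.967). Nrp2, the related receptor of VEGF-C and semaphorins, was at 4.22 ± 0.568 and 3.74 ± 0.519 FPKM. The semaphorin receptors Plxna1, at 14.7 ± 1.71 and 14.7 ± 2.23 FPKM, and Plxnd1, at 5.37 ± 0.348 and 5.10 ± 0.846 FPKM, overlapped too (SD, n = 3 each).

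The semaphorins are guidance ligands that act through these receptors. Sema3e, the ligand of Plxnd1, was at 1.53, 1.90 and 1.88 FPKM in WT and 1.31, 1.15 and 1.44 FPKM in CTGF_KO. It was the 1 gene of the 9 whose groups did not overlap, against 18.5% of all genes in either direction and 10.9% lower. Its log2 difference was -0.27 (SE 0.10, limma unadjusted p = 0.0337, adjusted p = 0.533). It was also the 1 of the 9 with an unadjusted p under 0.05, against 9.32% of all genes. Sema3a was at 0.898 to 1.10 FPKM in WT and 0.741 to 0.970 FPKM in CTGF_KO, and Sema3f at 17.0 ± 1.57 and 19.0 ± 2.04 FPKM (SD, n = 3), both with overlap.

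**Figure D4:**
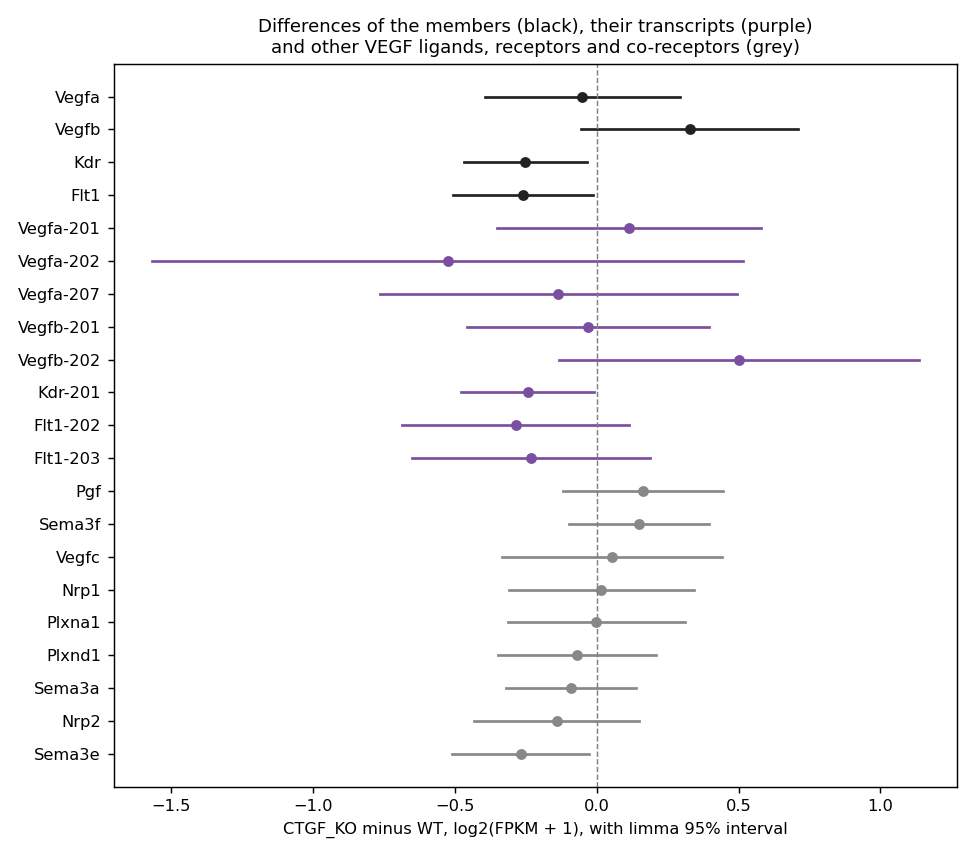
Differences of mean log2(FPKM + 1), CTGF_KO minus WT (horizontal axis), with limma 95% intervals (lines) for the 4 genes (black), their 8 transcripts (purple) and 9 other VEGF ligands, receptors and co-receptors (grey). The intervals of Kdr, Flt1, Kdr-201 and Sema3e end below 0 and all others cross it, and no adjusted p was under 0.05.

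Downstream of the receptors, 31 signalling genes were tested, 15 higher and 16 lower, with a median log2 difference of -0.01 and none past the adjusted threshold. At an unadjusted p under 0.05 there were 3 of 31, and the groups of 6 of 31 did not overlap, shares near the 9.32% and 18.5% of all genes. Grb2, an adaptor that links receptors to Ras, was at 14.8, 16.2 and 15.1 FPKM in WT and 27.0, 19.3 and 30.4 FPKM in CTGF_KO, without overlap (log2 difference 0.67, SE 0.16, limma adjusted p = 0.533). Pik3r1, a regulatory subunit of PI3-kinase, was at 76.2 ± 2.17 and 65.9 ± 5.77 FPKM (SD, n = 3 each), also without overlap. Cdc42, a small GTPase of cell shape and the most abundant of them, was at 103 ± 2.89 and 94.3 ± 11.1 FPKM with overlap. These genes act downstream of many receptors in all cell types.

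Upstream of Vegfa, 16 oxygen-sensing genes were tested, 7 higher and 9 lower (median log2 difference -0.03), with 0 past limma's adjusted threshold and 0 at an unadjusted p under 0.05. Epas1, which encodes HIF-2 alpha, was at 12.3, 13.9 and 14.2 FPKM in WT and 9.68, 12.7 and 11.4 FPKM in CTGF_KO, with overlap. Egln3, an oxygen sensor that marks HIF proteins for decay and is itself a HIF target, was at 1.97 ± 0.323 and 1.45 ± 0.273 FPKM, and its relative Egln2 at 19.1 ± 1.59 and 22.6 ± 2.66 FPKM. Elob, a subunit of the ubiquitin ligase that removes HIF proteins, was at 236 ± 35.1 and 279 ± 32.9 FPKM (SD, n = 3 each).

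Of 18 hypoxia response genes other than Vegfa, 11 were higher and 7 lower (median log2 difference 0.09), with 0 past the adjusted threshold and 1 at an unadjusted p under 0.05. That gene was Ldha, the lactate dehydrogenase subunit of glycolysis and the most abundant of the list, at 284, 248 and 243 FPKM in WT and 313, 378 and 289 FPKM in CTGF_KO. Its groups did not overlap (log2 difference 0.33, SE 0.12, limma unadjusted p = 0.0308, adjusted p = 0.533). Higd1a, a mitochondrial protein of the hypoxia response, was at 16.3 ± 1.17 and 14.2 ± 0.730 FPKM (SD, n = 3), also without overlap.

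Of 15 genes that bind or splice Vegfa RNA or act on its splicing factors, 2 were higher and 13 lower (median log2 difference -0.05), with 0 at an unadjusted p under 0.05. Sfpq, the most abundant, was at 130 ± 8.72 and 114 ± 6.12 FPKM. The splicing factors Srsf6, at 77.3 ± 5.65 and 68.2 ± 6.35 FPKM, and Srsf1, at 39.1 ± 1.25 and 34.2 ± 5.41 FPKM, also overlapped (SD, n = 3 each). The groups of 2 of the 15 genes, Srpk2 and Hnrnpl, did not overlap, both lower in CTGF_KO, against 10.9% of all genes. The mean level of this list, relative to the WT mean, was 0.05, 0.05 and -0.10 in the WT libraries, against -0.02, -0.18 and -0.09 in CTGF_KO. CTGF_KO replicate 2, the library with the highest share of Vegfa-201, was the lowest, and its part in that share was not tested.

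In whole retina, fewer cells of a type and less RNA per cell cannot be told apart, so the receptors are given beside the markers of the cells that may carry them. Of 24 endothelial markers 11 were listed and tested, and 10 of these were lower in CTGF_KO and 1 higher, where 55.1% of all genes were lower. The median log2 difference was -0.29, against -0.02 over all genes tested, with 0 markers at an unadjusted p under 0.05. The groups of 2 of the 11 did not overlap, Cd34 as lower and Podxl as higher, against 18.5% of all genes in either direction. None of the 11 was listed at 0 in any library. The deposited table holds no gene with both group means under 0.5 FPKM. Tek, at 0.729 FPKM in WT and 0.294 FPKM in CTGF_KO, is listed only through its WT mean. So is Tie1, at 0.860 and 0.467 FPKM. A gene under 0.5 FPKM in CTGF_KO can be listed only as lower, so the count and median partly follow from this floor. The mean level of the 11 markers relative to the WT mean was -0.08, -0.26 and 0.34 in the WT libraries, against -0.30, -0.06 and -0.32 in CTGF_KO. WT replicate 3 stood highest and the other WT libraries lay within the CTGF_KO range. Podxl, the most abundant and the exception, was at 37.8, 39.7 and 36.7 FPKM in WT and 48.8, 42.5 and 40.9 FPKM in CTGF_KO. The next most abundant, Cldn5, was at 6.57 ± 4.15 and 4.25 ± 1.72 FPKM (SD, n = 3 each). Which cells carry Podxl here was not tested.

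Flt1 had the same order as the endothelial list within WT, and Kdr the opposite order. The pericyte, astrocyte, Mueller glia, rod, erythroid and pigment epithelium lists had the order of Flt1 within WT too. It is thus not particular to endothelial genes, and an order of 3 libraries can easily match by chance. The log2 level of Kdr minus that of the endothelial list was 3.57, 3.92 and 3.07 in the WT libraries, against 3.63, 3.24 and 3.62 in CTGF_KO. That of Flt1 was -0.68, -0.59 and -0.90 in the WT libraries, against -0.71, -0.92 and -0.63 in CTGF_KO. Both overlapped between the groups (mean differences -0.02 and -0.03, two-sided exact permutation p = 1 and p = 0.7, n = 3 per group). The difference for Kdr was 0.16 with a pseudocount of 0.1, so its sign is not set. The level of the endothelial list includes Tek and Tie1, which are listed only through their WT means, and Podxl, which went the other way.

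Of 13 genes of endothelial tip cells and other VEGF targets tested, 5 were higher and 8 lower (median log2 difference -0.03). At an unadjusted p under 0.05 there were 2 of 13, against 9.32% of all genes. Igfbp3, a binding protein of insulin-like growth factors, was at 2.02, 2.12 and 2.16 FPKM in WT and 1.35, 1.66 and 1.33 FPKM in CTGF_KO. Aplnr, the apelin receptor of growing veins, was at 1.12, 1.12 and 2.46 FPKM in WT and 0.538, 0.846 and 0.620 FPKM in CTGF_KO. Neither overlapped between groups (log2 differences -0.34 and -0.59, limma adjusted p = 0.533 for each), and WT replicate 3 was the highest library for both. These were the only 2 of 13 without overlap, against 18.5% of all genes in either direction and 10.9% lower. Adm, a vasodilator peptide, was at 0.951 ± 0.683 and 1.52 ± 0.312 FPKM, and the chemokine receptor Cxcr4, the most abundant gene of this list, at 17.6 ± 1.05 and 15.7 ± 2.42 FPKM (SD, n = 3 each).

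Among the retinal cells that can make VEGF-A or carry VEGFR2, 7 of 8 horizontal cell genes were lower in CTGF_KO (median log2 difference -0.22), 10 of 13 ganglion cell genes (-0.12), 7 of 13 Mueller glia genes (-0.01) and 4 of 6 astrocyte genes (-0.11). All 14 cell cycle genes, which mark dividing cells of any type, were lower (-0.25). The share of all genes tested that was lower was 55.1%. The level of the horizontal cell list was -0.07, 0.02 and 0.05 in the WT libraries, against -0.24, -0.19 and -0.17 in CTGF_KO, without overlap as for Kdr and Flt1. The rod list, at -0.02, -0.24 and 0.26 in WT and 0.40, 0.38 and 0.28 in CTGF_KO, did not overlap either, but was higher. The VEGF receptor signalling list was also higher without overlap. Among single genes, 18.5% of all tested did not overlap. The cell cycle list was at 0.04, 0.27 and -0.31 in WT and -0.34, -0.18 and -0.22 in CTGF_KO, with overlap between the groups. Its order within WT was that of Kdr, but also that of Vegfa and Vegfb, so it does not single out Kdr. The part of the cells of these lists in the receptor values was not tested. Of the other lists, 12 of 12 rod genes, 6 of 9 microglia and macrophage genes, 7 of 8 pigment epithelium genes and 12 of 12 lens genes were higher. Of pericyte and smooth muscle genes 2 of 6 were higher, and of erythroid genes 1 of 5. Weak genes can be listed through 1 group alone here too. The erythroid gene Alas2 is listed through WT (1.01 FPKM, against 0.436 in CTGF_KO). The pigment gene Tyr is listed through CTGF_KO (0.595 FPKM, against 0.414 in WT).

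**Figure D5:**
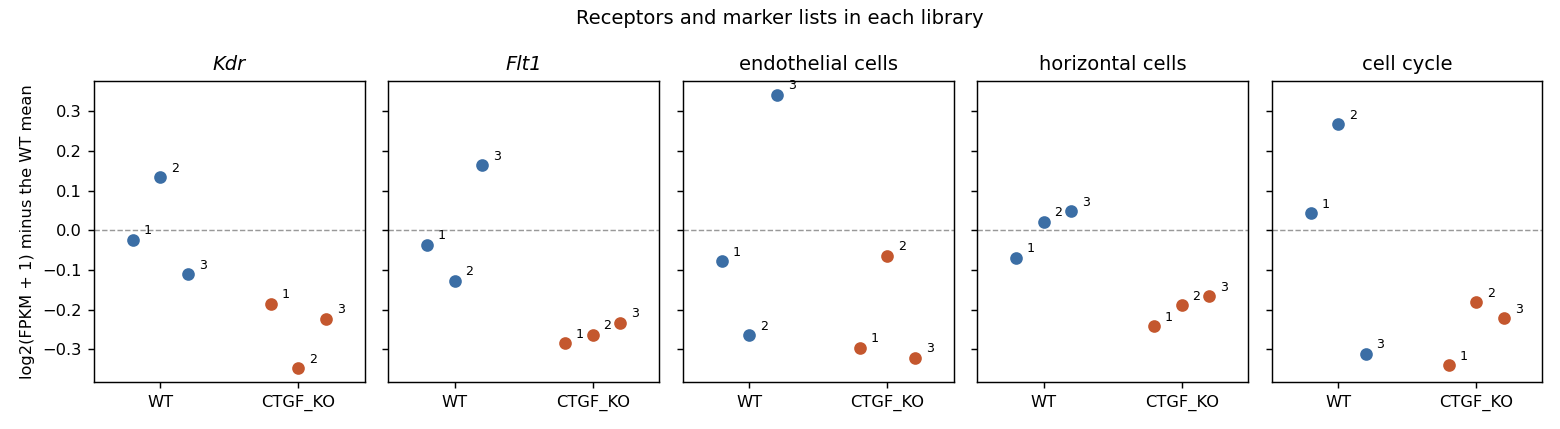
Log2(FPKM + 1) minus the WT mean (vertical axis) of Kdr, Flt1 and the mean of 3 marker lists in each library, with WT in blue, CTGF_KO in orange and replicate numbers beside the points. Kdr, Flt1 and the horizontal cell list separate the groups, whereas WT replicates 1 and 2 for the endothelial list and WT replicate 3 for the cell cycle list lie among the CTGF_KO libraries. The rod and VEGF receptor signalling lists, not drawn, also separate the groups, as higher in CTGF_KO.

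Genes whose pattern over the 6 libraries was nearest to each gene were found by the root mean square distance between profiles of log2(FPKM + 1), each centred on its mean, among genes with a mean of at least 1 FPKM. Nearest to Vegfa were Cntrl, Foxo4 and Zfp612, at distances of 0.038 to 0.040. Nearest to Vegfb were Ccdc61 (0.021), Fam222a (0.053) and Gipc1 (0.056), each of which had its widest spread in CTGF_KO, as Vegfb did. Nearest to Kdr were Phf14 (0.025), Rfx7 (0.027) and Esrrg (0.028), and nearest to Flt1 were Hgsnat (0.028), Smad3 (0.038) and Retreg1 (0.039). Esrrg, an orphan nuclear receptor gene, had means of 18.1 ± 1.21 FPKM (WT) and 15.0 ± 1.27 FPKM (CTGF_KO), and Smad3, a transducer of TGF-beta signals, at 4.42 ± 0.582 and 3.72 ± 0.0903 FPKM (SD, n = 3 each). With 6 libraries and 6569 to 10308 candidates such neighbours are a description only.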

How the data were processed

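Per the labels' protocols, stranded libraries were made from polyadenylated RNA and sequenced as read pairs. Per the submitters' processing notes, the authors trimmed reads with cutadapt, aligned them to GRCm38 with HISAT2 and quantified transcripts with StringTie, and the series' design text adds Ballgown. The sources used here give no tool versions. The authors deposited FPKM per gene and transcript. Per the file headers they also deposited log2 differences, fold changes, p-values and q-values, which were not used as tests here. Their columns of group means, headed FPKM, hold averages of log2(FPKM + 1). A single line (1 per table) was empty.

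The values were tested with limma 3.58.1 in R 4.3.3 (lmFit, eBayes with trend) on log2(FPKM + 1). The filter was a mean over 6 libraries of 0.5 FPKM or more, met by 4 of the 4 genes and 8 of their 8 transcripts. The code of the fit was tried on simulated data. The changes planted there were larger than any difference of the members, in features more abundant than Flt1. That trial therefore says nothing on differences as small, or levels as low, as those of the members. Shares, ratios and list-adjusted levels were compared by exact permutation tests over libraries, two-sided. The members and the 18 gene lists were chosen with earlier results of these data known. Besides the members and their transcripts, genes were named by rule: the listed VEGF family, the most abundant gene and the 3 smallest p of the other pathway lists, the most abundant gene of cell type lists and the 3 nearest profiles of each member, of which the text names a part. The result of 1 gene that the rule names is not reported here. Lists are described by counts and medians without a test.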

Additional observations from a re-analysis of the deposited data

How the results depend on the processing

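For Vegfb, Kdr and Flt1 the gene difference kept its sign in every alternative run, and for all 4 genes the adjusted p stayed above 0.05 (0.417 to 0.975). The unadjusted calls of Kdr and Flt1 did not hold in all of them. The alternatives were pseudocounts of 0.1 and 0.5, no filter, a mean of at least 1 FPKM, equal FPKM totals, median centring, no moderation, a replicate block and leaving out each library. Flt1 has no value under the stricter filter, nor do Vegfa-207, Flt1-202 and Flt1-203.

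Leaving out each library in turn, the Vegfa gene difference ran from -0.21 to 0.035 (log2). That of Vegfa-201 ran from -0.043 to 0.21, of Vegfa-207 from -0.31 to 0.051 and of Vegfb-201 from -0.16 to 0.10. The share difference ran from -1.24 to 0.28 percentage points for Vegfa-207, from -3.70 to 4.40 for Flt1-202 and from -4.40 to 3.70 for Flt1-203. Kdr minus the endothelial list ran from -0.25 to 0.17 (0.16 with a pseudocount of 0.1 and all libraries) and Flt1 minus that list from -0.12 to 0.050. With fewer libraries the groups hold 2 and 3 samples.

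Over the whole tables, 2 to 9 genes and 1 to 10 transcripts passed when a library was left out, against 6 and 6 with all. Without moderation 1 gene and 2 transcripts passed. Deviations of same-numbered WT and CTGF_KO libraries from their group means correlated at 0.01, 0.17 and -0.16. Those of unlike-numbered libraries correlated at -0.30 to 0.37. With 3 libraries per group these values cannot decide whether same-numbered libraries are pairs. With the replicate block 2 genes and 0 transcripts passed in limma (1093 transcripts at an unadjusted p under 0.05), and the unadjusted p went to 0.0515 for Kdr and 0.0507 for Flt1, both above 0.05, and to 0.0361 for Vegfb (adjusted p = 0.512 for each). Depth is unknown, so the counting error of weak values such as those of Flt1 could not be given.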
